A study of Mus musculus with 16 samples.

Results

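The miR-181 family was followed through early mouse hematopoiesis. Its members on the array were mmu-miR-181a, mmu-miR-181b, mmu-miR-181c and mmu-miR-181d, chosen by name and not by level, and they made up 4 of the 577 microRNAs (miRs) and 8 of the 1712 probes that were not controls. MiRs are short RNAs that guide the silencing complex to messenger RNAs, mostly through the seed, a stretch near the 5′ end that pairs with the target. MiRs that share a seed form a family and can share targets. In blood, miR-181a is best known from the lymphoid side: it was described as a miR that favours B cells when raised in marrow progenitors, and it tunes the sensitivity of the T cell receptor in developing thymocytes. The members are cut from paired precursors, miR-181a with miR-181b from either of 2 loci and miR-181c with miR-181d from a further one.

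RNA came from bone marrow of young adult female C57Bl/6 mice, with the cells of several mice pooled for each replicate. Marrow was depleted of cells with the lineage antigens B220, CD3, GR-1 and Ter119, enriched for c-kit and sorted by flow cytometry. One sort gave the HSC subsets, with LT-HSC, the long-term hematopoietic stem cells, on 1 array, and the short-term ST-HSC and the multipotent MPP on 3 arrays each. A separate sort gave the myeloid progenitors, with 3 arrays each of MEP, which lead to megakaryocytes and red cells, of GMP, which lead to granulocytes and monocytes, and of CMP, the common progenitor upstream of both. No group carried a transgene or received an agent. The 16 arrays measured 1 colour and lay on 3 slides. Myeloid progenitors were on slide 1 (replicates 1 and 2) and slide 2 (replicate 3), the HSC subsets on slide 2 (LT-HSC 1 and ST-HSC 1) and slide 3 (ST-HSC 2 and 3 and all of MPP).

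The mature sequences are shown because the seed defines the family and the remainder is what the probes read. They are given 5′ to 3′ from RefSeq (GRCm38.p6), with the seed, bases 2 to 8, in capitals.
mmu-miR-181a: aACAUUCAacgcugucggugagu
mmu-miR-181b: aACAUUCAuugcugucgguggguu
mmu-miR-181c: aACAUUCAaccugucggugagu
mmu-miR-181d: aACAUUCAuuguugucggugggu
All 4 members have the seed ACAUUCA, and of the 1679 mature mouse miRs in the RefSeq table these 4 were the only ones with it. Outside the seed the members fall into pairs that cut across the precursors. The sequences of mmu-miR-181a and mmu-miR-181c differ by an edit distance of 1 base and share their last 12 bases, although they come from different loci. Counting from 1 at the 5′ end, mmu-miR-181d differs from mmu-miR-181b by the substitution C12U, beside 1 base fewer at the 3′ end. From mmu-miR-181a to mmu-miR-181b the substitutions are A9U, C10U and A21G, with 1 further base at the 3′ end of mmu-miR-181b.

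Each member had a pair of probes with 10 spots each, which differed by 1 base in length. The array's own annotation (mm9) placed the probes that were used at chr1:139863054-139863067 for mmu-miR-181a, chr1:139863236-139863249 for mmu-miR-181b, chr8:86702823-86702841 for mmu-miR-181c and chr8:86702658-86702674 for mmu-miR-181d. The members on chromosome 1 lie on the plus strand and those on chromosome 8 on the minus strand. RefSeq lists further precursors of mmu-miR-181a and mmu-miR-181b on chromosome 2, inside Nr6a1, which encodes an orphan nuclear receptor, and its antisense gene Nr6a1os. The precursors on chromosomes 1 and 8 overlap no other gene there. A probe cannot tell which of the 2 precursors a mature miR-181a or miR-181b came from. The windows of the probes ended at the 3′ end that the array annotation gives to each miR, and are shown in capitals because they hold the bases the signal rests on.
mmu-miR-181a: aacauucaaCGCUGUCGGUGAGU
mmu-miR-181b: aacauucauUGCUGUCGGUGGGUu
mmu-miR-181c: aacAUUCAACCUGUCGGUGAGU
mmu-miR-181d: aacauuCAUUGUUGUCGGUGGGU
The windows of mmu-miR-181a and mmu-miR-181c share 12 bases at the 3′ end, and those of mmu-miR-181b and mmu-miR-181d share 11. How far these pairs share signal was not tested. Over the 16 arrays the log2 values of a member's 2 probes correlated with Pearson r of 0.977, 0.995, 0.983 and 0.970 for mmu-miR-181a to mmu-miR-181d. These values are a description, as the arrays share populations and the probes share bases. The other probe gave the same calls as the one used in each of the 6 main comparisons below.

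**Figure D1:**
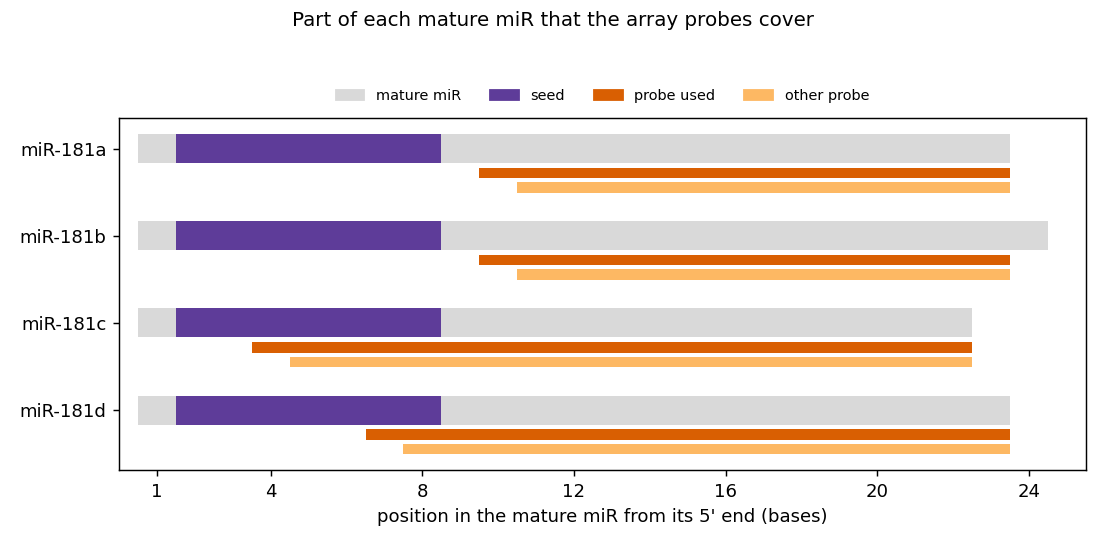
Part of each mature miR-181 member that its array probes cover, by position in bases from the 5′ end. Grey bars are the mature miRs, purple marks the seed, dark orange the probe that was used and light orange the other probe. The windows for miR-181a and miR-181b start at base 10, after the seed, whereas the windows for miR-181d and miR-181c start at bases 7 and 4.

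Signal is given on the log2 scale after background subtraction by the scanner software and quantile normalization between arrays, with a floor of 1.62. A miR was well above background on an array where at least 0.5 of the kept spots of its probe were called so by the scanner software. Probes of different miRs differ in how well they capture and label their target, so levels are compared between populations and not between members. Summed signal ran from 35255 units on LT-HSC 1 to 336394 on GMP 2, between 142 and 226 miRs were well above background on an array, and no spot was saturated. All 4 members were well above background on all 16 arrays and were among the 237 miRs tested, which were those well above background on at least 3 arrays.

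Markers went mostly with the labels. Granulocytic miR-223 was highest in GMP, at 14.04 on all 3 arrays. The stem cell marker miR-125a-5p was well above background on the arrays of HSC subsets and on none of the 9 arrays of myeloid progenitors. The other stem cell markers were less specific: miR-125b-5p was well above background on every myeloid array, and miR-99a and let-7e on some. The summed signal of these 4 markers was 1010 to 1220 units in ST-HSC, 1200 in LT-HSC 1 and 1420 to 1600 in MPP. It was 419 to 508 in CMP, 137 to 249 in GMP and 35.2 to 56.3 in MEP. Lymphoid miR-150 was well above background on every array of HSC subsets and CMP, on 2 GMP arrays and on no MEP array. The erythroid markers miR-144, miR-451 and miR-486 were all well above background on every MEP array, with a summed signal of 4040 to 6190 units. LT-HSC 1 stood apart from the other HSC subsets: all 3 erythroid markers were well above background on it, with a summed signal of 2390 units, against 85.1 to 308 in ST-HSC and 41.7 to 165 in MPP. Ter119, used in the depletion, is an erythroid antigen. ST-HSC 1 also differed from ST-HSC 2 and 3, which lay on another slide. Its median absolute difference from their mean over the 237 miRs was 0.77, against 0.18 between ST-HSC 2 and 3.

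Levels of mmu-miR-181a, the member with the strongest record in lymphocyte development, were 8.61 in LT-HSC 1, 9.16, 7.76 and 7.76 in ST-HSC 1 to 3, 8.56, 8.28 and 8.37 in MPP, 8.88, 8.65 and 9.37 in CMP, 7.998, 7.97 and 8.01 in GMP, and 5.79, 6.29 and 6.23 in MEP. The 3 MEP arrays were below all others, and the 3 GMP arrays were nearly level. Within ST-HSC the array on slide 2 was far above the pair on slide 3, whose values were equal because the probe held the same rank on both.

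Levels of mmu-miR-181b, which shares its precursor clusters with mmu-miR-181a, were 6.32 in LT-HSC 1, 7.01, 6.62 and 6.76 in ST-HSC, 7.65, 7.42 and 7.33 in MPP, 8.19, 8.04 and 7.97 in CMP, 7.97, 7.998 and 7.50 in GMP, and 4.97, 5.56 and 4.88 in MEP. The arrays of ST-HSC, MPP and CMP did not overlap one another, but how many tested miRs showed this was not counted. CMP and MPP share no slide, and with slide as a block MPP differed from CMP by only -0.05 (adjusted p = 0.917 by limma). MEP was again lowest.

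Levels of mmu-miR-181c were 7.05 in LT-HSC 1, 8.43, 7.14 and 7.22 in ST-HSC, 7.75, 7.66 and 7.66 in MPP, 8.28, 8.14 and 8.33 in CMP, 7.83, 7.81 and 7.24 in GMP, and 6.19, 6.37 and 5.73 in MEP. Here too ST-HSC 1 stood above ST-HSC 2 and 3, by 1.24.

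Levels of mmu-miR-181d, the partner of mmu-miR-181c in its precursor cluster, were 6.09 in LT-HSC 1, 7.08, 6.10 and 6.18 in ST-HSC, 7.14, 6.49 and 6.53 in MPP, 7.61, 7.58 and 7.26 in CMP, 7.48, 7.48 and 6.96 in GMP, and 5.64, 5.95 and 5.44 in MEP. The gap between MEP and the lowest of the other arrays was narrower for this member, with the highest MEP array at 5.95 and LT-HSC 1 at 6.09.

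**Figure D2:**
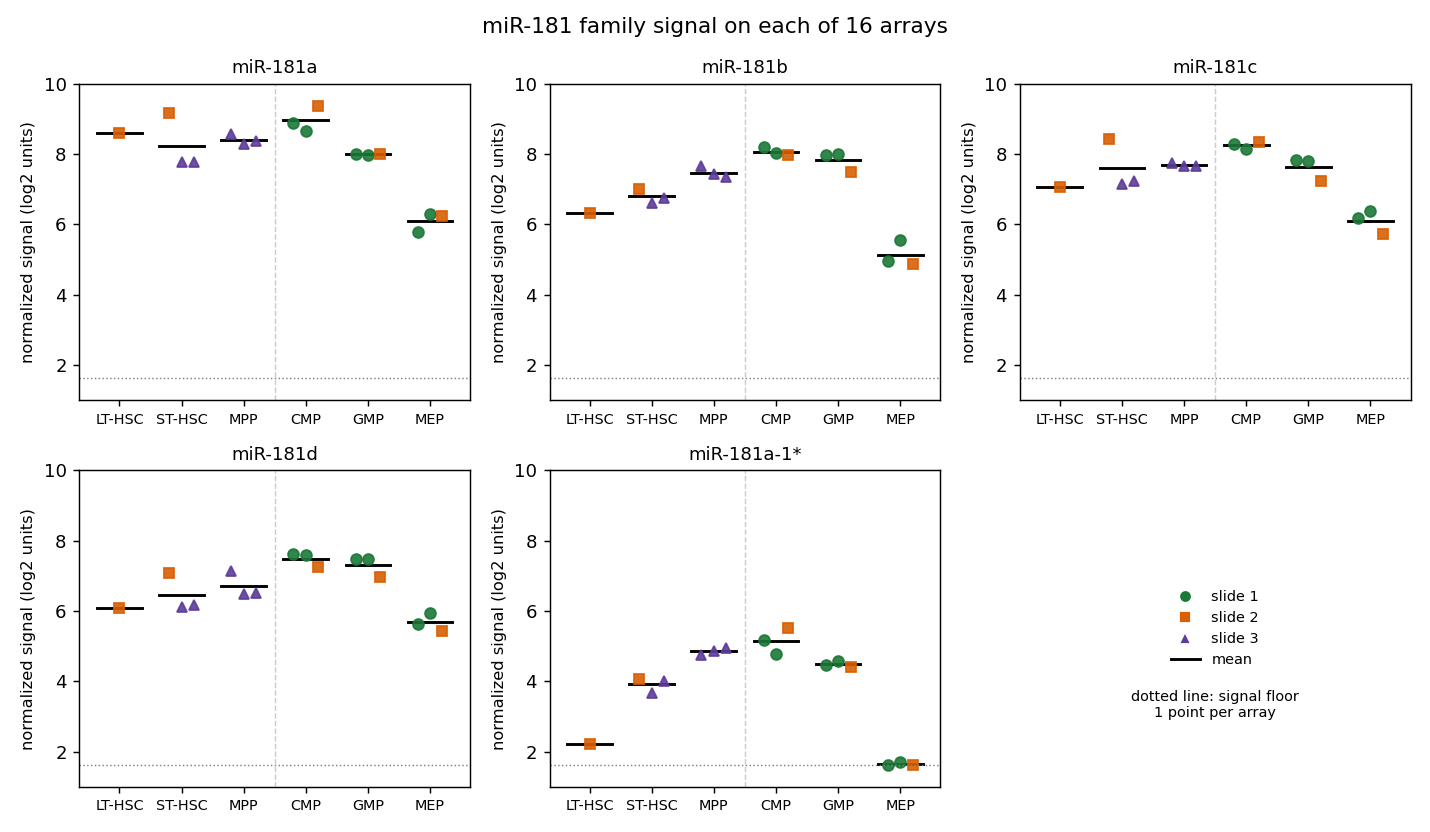
Normalized signal (log2 units, y axis) of each member and of miR-181a-1* on each of 16 arrays, by population (x axis). Points are arrays, marked by slide, and lines are population means. The 3 MEP arrays lie below every other array for all 4 members, and miR-181a-1* is at or near the floor (dotted line, 1.62) in MEP.

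All 4 members differed across the 6 populations (limma moderated F, adjusted p = 7.93e-05 for mmu-miR-181a, 1.22e-06 for mmu-miR-181b, 0.000678 for mmu-miR-181c and 0.000762 for mmu-miR-181d). This was common, since 82.7% of the tested miRs did. CMP had the highest mean of every member, at 8.96 ± 0.37 for mmu-miR-181a, 8.06 ± 0.12 for mmu-miR-181b, 8.25 ± 0.10 for mmu-miR-181c and 7.49 ± 0.19 for mmu-miR-181d (SD, n = 3), and MEP had the lowest. CMP and MPP share no slide, and with slide as a block MPP lay above CMP for mmu-miR-181a, mmu-miR-181c and mmu-miR-181d, as given below. Most neighbours in the order of means did not differ beyond their spread. For mmu-miR-181a the order was CMP, LT-HSC, MPP, ST-HSC, GMP and MEP, and only the last step, from GMP to MEP, passed the test. For mmu-miR-181b the order was CMP, GMP, MPP, ST-HSC, LT-HSC and MEP, and only the step from LT-HSC to MEP passed (1.19, adjusted p = 0.0129 by limma). For mmu-miR-181c (CMP, MPP, GMP, ST-HSC, LT-HSC, MEP) and mmu-miR-181d (CMP, GMP, MPP, ST-HSC, LT-HSC, MEP) no step between neighbours passed, where the last was set against the unreplicated LT-HSC array.

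The clearest pattern of the family was its low level in MEP, the progenitors of red cells and platelets. Against the equal-weighted mean of the other 5 populations, mmu-miR-181a fell by 2.33 (SE 0.27, 5.05-fold), mmu-miR-181b fell by 2.16 (SE 0.18, 4.46-fold), mmu-miR-181c fell by 1.55 (SE 0.25, 2.92-fold) and mmu-miR-181d fell by 1.14 (SE 0.23, 2.20-fold). The adjusted p-values by limma were 5.48e-06, 3.39e-07, 0.000117 and 0.000772. Thus 4 of 4 members were called lower in MEP, against 44.3% of the tested miRs. In either direction 68.4% were called. The median difference of the members was -1.85, against -0.47 over all tested miRs. Relative to that median, mmu-miR-181a was at -1.86, mmu-miR-181b at -1.68, mmu-miR-181c at -1.07 and mmu-miR-181d at -0.66. In order of size of difference among the 237 miRs the members stood at 34, 42, 73 and 113. For 4 of 4 members the MEP arrays did not overlap the other 13 arrays, which was so for 21.9% of tested miRs. Bulk RNA from sorted cells cannot tell fewer cells that contain a miR from less of it per cell. The erythroid markers given above were high in the same 3 arrays, and their part in these differences was not tested.

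The MEP difference was also present within slides. On slide 1 the differences of 2 MEP arrays from the 4 CMP and GMP arrays were -2.33, -2.78, -1.73 and -1.74 for mmu-miR-181a to mmu-miR-181d (adjusted p = 0.00144, 0.000148, 0.000454 and 0.000209 by limma, where 63.7% of tested miRs were called). On slide 2 the single MEP array differed from the other 4 by -2.55, -2.32, -2.03 and -1.41. These values did not pass, and with 1 MEP array the test could not decide. With slide as a block the differences were -2.69, -2.40, -2.09 and -1.61, and 4 members were called, against 80.6% of tested miRs in either direction. Without LT-HSC 1 they were -2.30, -2.41, -1.70 and -1.32, and 4 members were again called.

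Among the myeloid progenitors, GMP and CMP both had more of every member than MEP. GMP stood above MEP by 1.89 for mmu-miR-181a, 2.68 for mmu-miR-181b, 1.53 for mmu-miR-181c and 1.63 for mmu-miR-181d (adjusted p = 0.000301, 7.52e-07, 0.000863 and 0.000316 by limma). That is 4 of 4 members higher in GMP, against 40.9% of tested miRs, with 62.9% called in either direction. CMP stood above MEP by 2.86, 2.93, 2.15 and 1.81 in the same order, with 4 of 4 members called against 43.9% of tested miRs. Between CMP and GMP, 0 of 4 members were called by limma, with 1 at an unadjusted p under 0.05, beside 7.59% of tested miRs called. There mmu-miR-181a was 0.97 higher in CMP (adjusted p = 0.0919) and mmu-miR-181c was 0.62 higher (adjusted p = 0.293). Both passed once slide was a block (adjusted p = 0.00113 and 0.00999 by limma), where 28.7% of tested miRs were called. CMP and GMP each had 2 replicates on slide 1 and the third on slide 2, so the block left the differences as they were and reduced their errors.

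The other arm of a miR-181a precursor was also on the array. MiR-181a-1*, cut from the 3′ side of the precursor on chromosome 1, was well above background on 12 of 16 arrays, at 4.07, 3.68 and 4.02 in ST-HSC, 4.76, 4.87 and 4.96 in MPP, 5.17, 4.79 and 5.51 in CMP, and 4.46, 4.58 and 4.41 in GMP. It was not well above background on LT-HSC 1 or on any MEP array. Its mean in CMP was at least 2.83-fold and in MPP at least 2.31-fold that in MEP, where MEP was given, on each array, the dimmest signal that counted as well above background, if that exceeded its own (limma adjusted p = 5.1e-08 and 2.55e-08 on the measured values). MPP exceeded ST-HSC by 0.94 (adjusted p = 0.0276 by limma). MiR-181a-2*, the same arm of the precursor on chromosome 2, differs from miR-181a-1* by 2 bases, and none of its 4 probes rose well above background on an array. The mature sequences are shown, with the seeds in capitals, since these arms are the only sequences on the array that tell the precursors apart.
mmu-miR-181a-1*: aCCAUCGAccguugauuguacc
mmu-miR-181a-2*: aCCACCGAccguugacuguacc

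Whether the family marked stem cells was addressed by comparing the HSC subsets with the myeloid progenitors, with each population weighted equally. Only mmu-miR-181a was called, at 0.73 higher in the HSC subsets (SE 0.22, 95% confidence interval 0.25 to 1.21, adjusted p = 0.0172 by limma). The others differed by -0.15 for mmu-miR-181b (interval -0.47 to 0.18), 0.12 for mmu-miR-181c (interval -0.33 to 0.57) and -0.40 for mmu-miR-181d (interval -0.82 to 0.02), and did not pass. With 1 of 4 called, against 48.1% of tested miRs, the family did not stand out here. The levels of mmu-miR-181a overlapped, with 7.76 to 9.16 on 7 arrays of HSC subsets and 5.79 to 9.37 on 9 arrays of myeloid progenitors. Of the myeloid progenitors, GMP (7.99) and MEP (6.10) had means below those of all HSC subsets, while CMP was above them.

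Slide mattered more to this comparison than to the MEP result. With slide as a block, mmu-miR-181a was 1.32 and mmu-miR-181c was 1.04 higher in the HSC subsets (adjusted p = 0.000306 and 0.00086 by limma), so 2 members were called, against 44.3% of tested miRs. Only ST-HSC joins slide 3 to the others, so the estimate for slide 3 rests on ST-HSC 1 against ST-HSC 2 and 3. Within slide 2, where 2 arrays of HSC subsets met 3 of myeloid progenitors, the difference of mmu-miR-181a was 1.01 and did not pass (adjusted p = 0.953 by limma). There 0% of the tested miRs were called, so this test could not decide. With arrays scaled to the 75th percentile of all probes the difference of mmu-miR-181a was 0.13 and its call was lost (adjusted p = 0.706), while mmu-miR-181d was called lower (-0.66, adjusted p = 0.038). Without normalization between arrays mmu-miR-181d was likewise the member called (-1.17, adjusted p = 0.0409) and mmu-miR-181a turned to -0.39 (adjusted p = 0.449), beside a median of -0.60 over all tested miRs, and relative to that median mmu-miR-181a was still higher, by 0.22. Without LT-HSC 1 mmu-miR-181a was 0.63 higher (adjusted p = 0.0218), and without ST-HSC 1 it was 0.57 higher (adjusted p = 0.00376), with mmu-miR-181d then also called, at -0.50 (adjusted p = 0.0151).

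**Figure D3:**
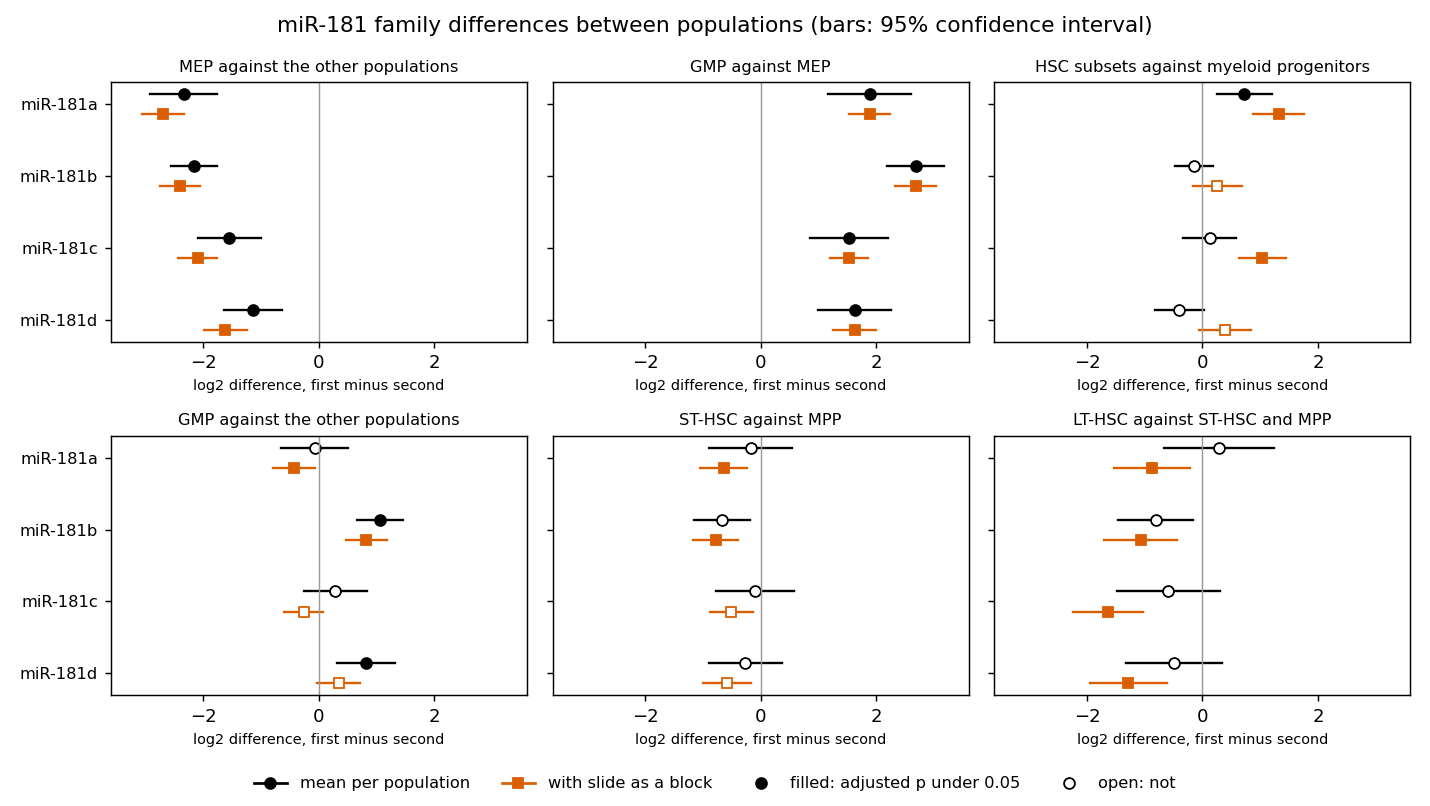
Log2 difference of each member (x axis, first side minus second) in 6 comparisons, with 95% confidence intervals as bars. Black circles are from the model with a mean per population, orange squares from the model with slide as a block, and filled symbols passed an adjusted p of 0.05. All 8 estimates for MEP are below 0 and filled, whereas for LT-HSC the block moved mmu-miR-181a from 0.29 to -0.88.

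GMP was also set against the equal-weighted mean of the other 5 populations. Here the members split: mmu-miR-181b was 1.06 higher (SE 0.18, adjusted p = 0.000422) and mmu-miR-181d was 0.82 higher (SE 0.23, adjusted p = 0.0117 by limma), while mmu-miR-181a (-0.07) and mmu-miR-181c (0.29) did not pass. That is 2 of 4 called higher, against 29.1% of tested miRs, with 48.1% called in either direction. The called members, mmu-miR-181b and mmu-miR-181d, have near-identical sequence outside the seed, as shown above. With arrays scaled to the 75th percentile of all probes mmu-miR-181c passed as well (0.85, adjusted p = 0.0394 by limma). With slide as a block mmu-miR-181b was still higher (0.82, adjusted p = 0.00145), mmu-miR-181d no longer passed (0.34, adjusted p = 0.112) and mmu-miR-181a was lower (-0.43, adjusted p = 0.0498). With the block, 50.6% of tested miRs were called. Within slide 1, where 2 GMP arrays met 4 of CMP and MEP, the differences of mmu-miR-181b and mmu-miR-181d were 1.29 and 0.78. There 0 members passed by limma, also at an unadjusted p under 0.05, but only 0.844% of tested miRs were called. Within slide 2 the single GMP array differed from the 4 others by 0.95 and 0.49. The call for mmu-miR-181d was lost without GMP 1 (0.72, adjusted p = 0.067) and without GMP 2 (0.70, adjusted p = 0.0738).

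Among the HSC subsets, 0 of 4 members passed between ST-HSC and MPP by limma, with 1 at an unadjusted p under 0.05, and 4.64% of tested miRs were called. The largest difference was that of mmu-miR-181b, 0.67 lower in ST-HSC (95% confidence interval 0.18 to 1.16, adjusted p = 0.111). Within slide 3, which held 2 ST-HSC arrays and all MPP arrays, mmu-miR-181a was lower in ST-HSC by 0.64, mmu-miR-181b by 0.78 and mmu-miR-181c by 0.51 (adjusted p = 0.0179, 0.0168 and 0.0158 by limma, where 24.9% of tested miRs were called), and mmu-miR-181d differed by -0.58 (adjusted p = 0.131). With slide as a block 2 members, mmu-miR-181a and mmu-miR-181b, were called lower in ST-HSC, at -0.64 and -0.78, against 17.7% of tested miRs in either direction. As all MPP arrays lie on slide 3, these are the slide 3 differences again and no separate check.

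The single LT-HSC array was set against ST-HSC and MPP with the spread of the other populations. By limma 0 of 4 members were called, with 1 at an unadjusted p under 0.05, against 29.1% of tested miRs called. The differences were 0.29 for mmu-miR-181a, -0.81 for mmu-miR-181b (adjusted p = 0.0585), -0.59 for mmu-miR-181c and -0.49 for mmu-miR-181d, beside a median of -0.39 over all tested miRs. With slide as a block all 4 members were called lower in LT-HSC, at -0.88, -1.07, -1.63 and -1.28, against 55.7% of tested miRs in either direction, and the sign of mmu-miR-181a was reversed. LT-HSC 1 shares its slide with ST-HSC 1 and with no MPP array, and its differences from ST-HSC 1 were -0.56, -0.68, -1.37 and -0.99. Scaling arrays to the 75th percentile of the probes detected throughout put all 4 members higher in LT-HSC than in ST-HSC and MPP. The differences were then 0.71, 0.23, 0.30 and 0.43, beside a median of 0.49 over all tested miRs. The sign for mmu-miR-181b, mmu-miR-181c and mmu-miR-181d thus depended on the scaling. So did that of mmu-miR-181a, at -0.50 with the 75th percentile of all probes and -1.81 without normalization between arrays. LT-HSC 1 also had the high erythroid signal given above, and its part in these differences was not tested. Without ST-HSC 1 mmu-miR-181b passed, at -0.75 (adjusted p = 0.0463).

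CMP was also set against each of the HSC subsets. ST-HSC was below CMP for mmu-miR-181b (-1.27, adjusted p = 0.0028) and mmu-miR-181d (-1.03, adjusted p = 0.0272 by limma), that is 2 of 4 members against 9.7% of tested miRs. LT-HSC was below CMP for mmu-miR-181b, mmu-miR-181c and mmu-miR-181d (-1.74, -1.20 and -1.39), that is 3 of 4 against 27.8% of tested miRs. With slide as a block the ST-HSC value was -0.83 for mmu-miR-181b (adjusted p = 0.048) and -0.14 for mmu-miR-181d (adjusted p = 0.783), so that 1 of 4 was called, against 2.95% of tested miRs. MPP was not called below CMP for any member by limma (-0.56, -0.60, -0.56 and -0.77, adjusted p = 0.209, 0.0566, 0.183 and 0.0573), with 2 at an unadjusted p under 0.05, beside 32.9% of tested miRs called. The slide block moved them to 0.65, -0.05, 0.91 and 0.44, and 1 of 4 was called, mmu-miR-181c at a higher level in MPP (adjusted p = 0.0436), against 20.7% of tested miRs. Of 60 values over the 15 pairs, 28 passed, and all 4 members did so in ST-HSC, MPP, CMP and GMP against MEP. Levels higher than in MEP were common, with 91 of the 237 tested miRs called higher in ST-HSC and 109 in MPP. Over the 237 tested miRs the calls per pair ran from 11 for ST-HSC against MPP to 169 for MPP against MEP. No pooled share was computed, so the 28 is not read as a trait of the family.

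Members of a shared precursor cluster were then compared within each array. This cancels a scaling by a common factor per array, but not quantile normalization, which changes low and high signals by different factors. The height of such a difference has no meaning of its own, since the probes differ, and only its change between populations is read. The difference of mmu-miR-181c over mmu-miR-181d was 0.96 in LT-HSC 1, 1.04 to 1.34 in ST-HSC, 0.60 to 1.17 in MPP, 0.55 to 1.07 in CMP, 0.27 to 0.35 in GMP and 0.30 to 0.55 in MEP. It was 0.54 larger in the HSC subsets than in the myeloid progenitors (1.04 ± 0.23, SD, n = 7, against 0.50 ± 0.25, SD, n = 9, two-sided exact permutation p = 0.00175, Benjamini-Hochberg adjusted over 4 tests 0.007). The groups overlapped, with MPP 1 (0.60) lowest among the HSC subsets and CMP 3 (1.07) highest among the myeloid progenitors. Means were 0.97 in MPP, 0.76 in CMP and 0.32 in GMP. The permutation moved arrays freely between populations and slides. As slide 1 held only myeloid progenitors and slide 3 only HSC subsets, its p-value does not separate population from slide. Within slide 2 the change was 0.61 with 2 arrays against 3 (exact permutation p = 0.3, smallest possible 0.1). Without normalization between arrays the change over all arrays was smaller, at 0.36 (exact permutation test, adjusted p = 0.00664).

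The difference of mmu-miR-181a over mmu-miR-181b ran from -0.03 to 0.52 in GMP, where it was lowest, from 0.61 to 1.40 in CMP, 0.73 to 1.36 in MEP, 0.86 to 1.03 in MPP and 1.003 to 2.16 in ST-HSC, and was 2.28 in LT-HSC 1. It was 0.66 larger in the HSC subsets (two-sided exact permutation p = 0.0306, adjusted 0.0612), which did not pass after adjustment. Without normalization between arrays it was 0.54 larger and passed (exact permutation test, adjusted p = 0.0411). Within slide 2 this change was 1.13 (exact permutation p = 0.1, the smallest possible there). The slides themselves differed, with the slide 2 array the highest of its population in ST-HSC, CMP, GMP and MEP. Without LT-HSC 1 the change was 0.51 (exact permutation test, adjusted p = 0.145). MEP did not differ detectably from the other populations in either pair, at 0.00 for mmu-miR-181a over mmu-miR-181b (exact permutation p = 0.996) and -0.39 for mmu-miR-181c over mmu-miR-181d (exact permutation p = 0.111).

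**Figure D4:**
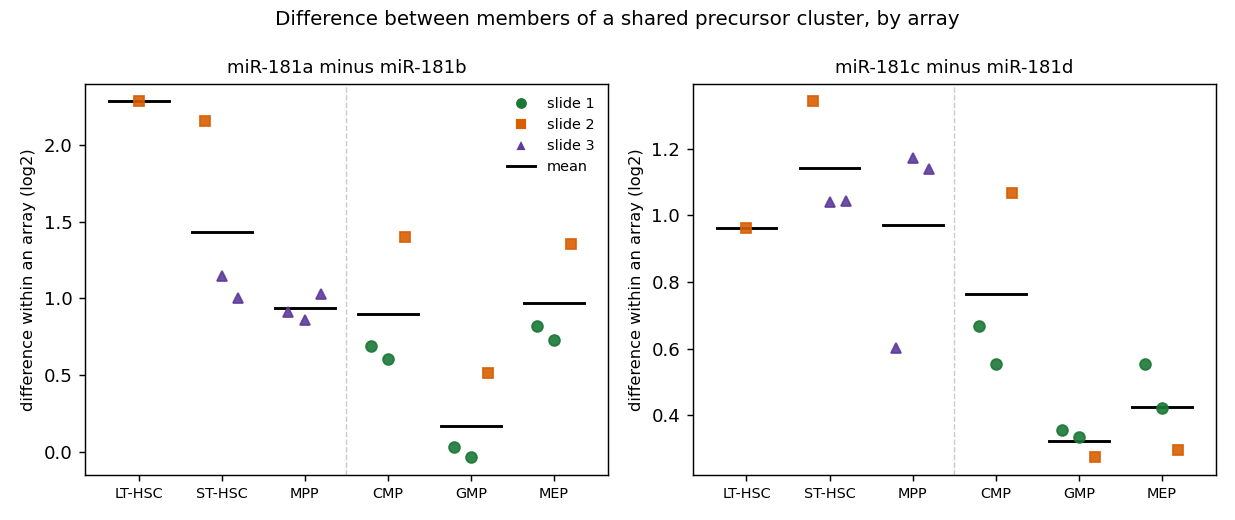
Difference between 2 members of a shared precursor cluster on the same array (log2, y axis), by population (x axis). Points are arrays, marked by slide, and lines are population means. In miR-181c minus miR-181d the HSC subsets average 1.04 and the myeloid progenitors 0.50, and in miR-181a minus miR-181b the slide 2 arrays are the highest of ST-HSC, CMP, GMP and MEP.

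Across the 16 arrays the members correlated with each other at Pearson r of 0.74 (mmu-miR-181a with mmu-miR-181d) to 0.93 (mmu-miR-181b with mmu-miR-181d). Between members of 1 cluster r was 0.83 for mmu-miR-181a with mmu-miR-181b and 0.89 for mmu-miR-181c with mmu-miR-181d. It was 0.92 for mmu-miR-181a with mmu-miR-181c, whose probe windows share 12 bases, and 0.91 for mmu-miR-181b with mmu-miR-181c, whose windows share 2 at the 3′ end. Outside the family, the miRs with the most similar pattern were miR-100 (0.93), miR-130a (0.91) and let-7i (0.90) for mmu-miR-181a, and let-7i (0.95), miR-100 (0.93) and miR-450a-5p (0.92) for mmu-miR-181c. For mmu-miR-181b they were miR-361 (0.98), miR-467e (0.94) and miR-345-5p (0.94), and for mmu-miR-181d miR-467e (0.95), miR-361 (0.92) and miR-140 (0.91). MiR-467e was well above background on only 4 arrays. These correlations describe 16 arrays that share populations, slides and normalization.

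Other miRs described for lymphoid roles gave a context for the MEP result. Of 9 on the list, all tested, 5 were lower and 2 higher in MEP than in the other populations, and 2 did not pass. Over all 237 tested miRs, 105 (44.3%) were called lower in MEP and 57 higher. MiR-155, which is needed for germinal centre B cells, fell by 2.46 (adjusted p = 4.68e-05). MiR-146a, which restrains NF-kB signalling, miR-342-3p and miR-150, which restrains Myb in lymphocytes, were not well above background on any MEP array, and the mean of the other populations was at least 5.2-fold, 3.72-fold and 3.84-fold higher. For miR-150 the arrays overlapped, with the lowest GMP array at 3.02 and the highest MEP array at 3.85. Between GMP and MEP the difference of miR-150 was 0.68 and did not pass (adjusted p = 0.201 by limma). With slide as a block the same difference passed (adjusted p = 0.0043 by limma), where 192 of the 237 tested miRs were called. The median of the list was -0.82. In the HSC subsets against the myeloid progenitors 4 of the 9 were higher and 3 lower, led by miR-146a (2.73) and miR-150 (2.14), with miR-17 at -1.34 and miR-342-3p at 1.11.

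Of 13 miRs described for megakaryocyte roles, all tested and 5 of them also on the lymphoid list, 9 were lower and 2 higher in MEP. The largest differences were those of miR-125b-5p (-3.99), miR-10a (-3.85), miR-130a (-3.74) and miR-146a. MiR-125b-5p is also one of the stem cell markers used here, and MEP includes erythroid as well as megakaryocytic precursors. The median of this list was -2.50. In the HSC subsets 8 of the 13 were higher and 3 lower, led by miR-125b-5p (3.00), miR-10a (2.82), miR-146a (2.73) and miR-150 (2.14). Both lists were read beside the background of 68.4% called in either direction for MEP, with 44.3% lower, and 48.1% for the HSC subsets. In the HSC subsets 60 of the 237 tested miRs were called higher and 54 lower.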

How the data were processed

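The arrays, of 1 colour each, were grouped by their titles. The authors deposited the scanner output, in which the intensity of each spot is background-subtracted by Agilent Feature Extraction (version 9.5.3.1 on slide 1 and 10.2.1.3 on slides 2 and 3, per the file headers) with no normalization between arrays. Slide 1 was read on another scanner model than the other slides. They also deposited log2 values per spot after quantile normalization with limma. These followed the order of the scanner rows and the ranks of the median foreground (Spearman rho 1 on every array), which includes background. Their medians were 5.41 to 5.44. Whether further arrays were normalized with these is not given in the sources used here.

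From the intensity, control spots and the spots that Feature Extraction flagged as outliers, by uniformity or by population, were dropped. Spots of a probe were averaged, and arrays were quantile normalized, as in the study's methods. Signals were raised to a floor of 3.07 units (log2 1.62) before log2. The floor is the middle value, over arrays, of each array's 95th percentile of negative controls. MiRs needed a probe well above background on at least 3 arrays, and the brightest passing probe was used. Population means were estimated from all 16 arrays by limma (3.58.1, run in R 4.3.3 beside the package data.table, version 1.17.8), with 10 residual and 3.1 prior degrees of freedom, and p-values were adjusted by Benjamini-Hochberg over the 237 miRs, with 0.05 as the threshold. LT-HSC, with 1 array, was assumed to vary like the others. Comparisons share arrays and are not independent of each other. Differences within an array were tested by exact permutation, which treated arrays as exchangeable across populations and slides. The model was also tested on simulated data. Alternatives covered background, scaling, floor, filter, probe, slide, replicate number and leaving out each array.

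The members, lists, tests and alternatives were chosen with earlier results of these data known. Named were the members, other arms of their precursors, the 3 miRs most like each member, and at most 4 miRs per list and comparison, beside the markers. Nothing in the labels ties replicates to separate sorts, so p-values measure the spread between these arrays, and their number limits the precision. Sequences are from RefSeq, which matched all 4 members and both other arms by name.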

Additional observations from a re-analysis of the deposited data

How the results depend on the processing

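Counts are of members called, and the cause of a change was not tested unless named. The 4 calls across populations and the 4 for GMP against MEP held under all alternatives run, and the 4 for MEP against the other populations held except within slide 2, where 0 were called with 1 MEP array against 4 arrays. For mmu-miR-181d in MEP the call was also lost without normalization between arrays (-1.06, adjusted p = 0.112). For the HSC subsets 1 member was called, and 0 within slide 2, where 0% of tested miRs were called. The count was 2 with the authors' values, normexp, slide as a fixed or a random block (correlation 0.79), or the replicate block. The added member was mmu-miR-181c, higher, with either slide block, and mmu-miR-181b (normexp) or mmu-miR-181d (authors' values, replicate block), lower, with the others. With the 75th percentile of all probes and without normalization the count was still 1, but the member called was mmu-miR-181d, lower (-0.66 and -1.17), and mmu-miR-181a, at 0.13 and -0.39, was not called, and the value of mmu-miR-181a in LT-HSC turned to -0.88 with slide as a block. For GMP against the other populations 2 were called. The count was 1 with arrays scaled to the 75th percentile of the probes detected throughout or with slide as a random block. It was 3 with the 75th percentile of all probes (mmu-miR-181c added). Within slide 1 it was 0, beside 0.844% of tested miRs called, and slide 2 held a single GMP array. Under the fixed slide block 2 were called, but mmu-miR-181a, lower, took the place of mmu-miR-181d. For ST-HSC against MPP 0 were called, against 1 with normexp or slide as a random block, 2 under the fixed slide block and 3 within slide 3. For LT-HSC 0 were called, against 1 with normexp, the filter on all arrays, an intensity trend or the replicate block, 2 without normalization, 3 with slide as a random block and 4 with slide as a block. Of the 4 tests of unequal change 1 passed, against 2 with either 75th percentile scaling, no normalization, the mean of the probes, the other probe or Feature Extraction's total signal per miR (chosen after seeing the data), and 3 with normexp.

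Leaving out each array in turn gave 1 to 2 calls for the HSC subsets (2 without ST-HSC 1), 1 to 2 for GMP (1 without GMP 1 or GMP 2), 0 to 1 for LT-HSC (1 without ST-HSC 1, GMP 3, MEP 2 or MEP 3) and 1 to 2 for unequal change (2 without MPP 2, CMP 3 or MEP 3), and left the other counts as they were. Replicates share numbers only: deviations of same-numbered arrays had a median r of -0.033, against 0.023 for others, and 9 of 15 arrays correlated best with an array of their own number. With the replicate block, mmu-miR-181d was lower in the HSC subsets (-0.49, adjusted p = 0.0334) and mmu-miR-181b lower in LT-HSC (-0.91, adjusted p = 0.047). Scaling moved the median of all miRs. Between quantile normalization and no normalization the median over all tested miRs went from 0.06 to -0.60 for the HSC subsets, from -0.47 to -0.38 for MEP, from 0.07 to 0.73 for GMP and from -0.39 to -1.87 for LT-HSC. The share of calls that were higher was 52.6% for the HSC subsets, against 75.4%, 42.2% and 19.5% with the percentile of detected probes, the percentile of all probes and no normalization. For GMP it was 60.5%, against 30.4%, 74.6% and 85.1%, for GMP against MEP 65.1%, against 46.6%, 73.5% and 66.7%, and for LT-HSC 27.5%, against 69.9%, 12.9% and 0%. For ST-HSC against MPP it was 27.3% of 11 calls, against 42.9% of 7 and 18.8% of 16. Members did not all move with it: relative to that median mmu-miR-181a went from 0.67 to 0.22 for the HSC subsets and from 0.68 to 0.06 for LT-HSC. Relative to it, all 4 members were below it in MEP and above it in GMP against MEP under all 4 scalings.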
